A study of Homo sapiens with 8 samples.

Results

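Of 15469 long noncoding RNA loci with values, 304 were expressed in untreated LM3 cells and nearly silent in untreated HepG2 cells. They were chosen by level: a mean of 0.5 FPKM or more in both DMSO libraries of LM3 together, and a mean under 0.1 FPKM in those of HepG2. FPKM counts sequenced fragments, scaled to transcript length and to the size of the library. The libraries with JQ1 played no part in the choice. A further 6145 loci met the LM3 limit but reached the HepG2 limit too, and 279 met the opposite rule, expressed in HepG2 only.

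LM3 and HepG2 are human liver cancer lines. RNA was compared in 4 groups of 2 libraries each: HepG2 with DMSO, the vehicle, HepG2 with JQ1, LM3 with DMSO and LM3 with JQ1. Total RNA was depleted of ribosomal RNA and sequenced in read pairs. The labels give neither the dose of JQ1 nor its time, and name no separate cultures, so a p-value here weighs a change against the spread of 2 libraries a group, which may be purely technical.

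Long noncoding RNAs are transcribed much as messenger RNAs are but are not known to be translated. Many are made in a few cell types only, often from enhancers or beside the genes of developmental regulators, and many host microRNAs in their introns or exons. JQ1 occupies the acetyl-lysine pocket of BET bromodomain proteins, a family of chromatin readers, and clusters of strong enhancers are known to be sensitive to it.

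Few of the 304 loci had a known product, and the clearest were precursors of microRNAs, so these sequences are shown first. GENCODE 29 places microRNA genes inside 4 of the 304 loci on the same strand, and sequences from RefSeq (GRCh38.p14) were matched for 2 of these. MIR29B2CHG (ENSG00000203709, chr1:207801518-207879115, minus strand, GRCh38) is the host of 2 of them, MIR29C and MIR29B2, whose 3p products share 1 seed. LXLOC_027850 (chr19:53747309-53764199, plus strand) covered 8 microRNA genes, 7 of them matched, of the chromosome 19 microRNA cluster, a primate cluster known for its expression in placenta. Names that begin with LXLOC are the authors' own. In each mature sequence below, 5′ to 3′, capitals mark the seed, bases 2 to 8; miR-519a-5p and miR-522-5p have the same sequence.
hsa-miR-29c-3p: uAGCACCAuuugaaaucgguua
hsa-miR-29b-3p: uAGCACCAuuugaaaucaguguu
hsa-miR-519a-3p: aAAGUGCAuccuuuuagagugu
hsa-miR-519a-5p: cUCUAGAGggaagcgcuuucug
hsa-miR-522-5p: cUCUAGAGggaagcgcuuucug
hsa-miR-516a-5p: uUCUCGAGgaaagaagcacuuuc
hsa-miR-521: aACGCACUucccuuuagagugu
hsa-miR-1283: uCUACAAAggaaagcgcuuucu

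MIR29B2CHG stood at 1.00 and 1.06 FPKM in the LM3 DMSO libraries and at 0.77 and 0.75 FPKM with JQ1. In HepG2 it stood at 0.08 and 0.09 FPKM in DMSO and at 0.13 and 0.27 FPKM with JQ1. The LM3 groups did not overlap, and the change did not pass the test described below (log2 fold change -0.28 ± 0.10 SE, n = 2 per group, limma adjusted p = 0.112). An overlapping locus on the same strand, LXLOC_005027, had a mean of 1.24 FPKM in HepG2 DMSO, and reads of the 2 loci may have been split or counted in both. LXLOC_027850 stood at 1.00 and 0.70 FPKM in LM3 DMSO and at 0.36 and 0.60 FPKM with JQ1. Its HepG2 values were 0.00 in both DMSO libraries and 0.00 and 0.06 FPKM with JQ1. The JQ1 libraries lay below the DMSO libraries in LM3, again without passing the test (log2 fold change -0.46 ± 0.20 SE, limma adjusted p = 0.160). These values are of the long RNA, and the mature microRNAs were not measured.

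RefSeq promoter windows, from 250 bases before the start to 50 bases after it, were found for 30 of the 304 loci, 16 by symbol and 14 by a start within 50 bases on the same strand. The 6 windows below belong to loci whose RNA was lower with JQ1 in LM3. They are printed 5′ to 3′ on the strand of the gene, and capitals mark the letters searched for on either strand. These were TGANTCA, bound by AP-1 factors, CATTCC, bound by TEAD factors, CACGTG, the E-box of MYC, CCAAT, the box of NF-Y, GATAA, bound by GATA factors, and TATAAA, the TATA box.
LINC01508, chr9:90433440-90433739, minus strand: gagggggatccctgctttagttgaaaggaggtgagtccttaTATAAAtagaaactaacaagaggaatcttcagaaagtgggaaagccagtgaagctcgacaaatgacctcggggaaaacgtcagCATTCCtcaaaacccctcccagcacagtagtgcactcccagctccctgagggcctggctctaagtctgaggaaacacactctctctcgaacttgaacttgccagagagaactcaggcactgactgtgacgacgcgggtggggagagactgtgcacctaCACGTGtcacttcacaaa
NR2F2-AS1, chr15:96327069-96327368, minus strand: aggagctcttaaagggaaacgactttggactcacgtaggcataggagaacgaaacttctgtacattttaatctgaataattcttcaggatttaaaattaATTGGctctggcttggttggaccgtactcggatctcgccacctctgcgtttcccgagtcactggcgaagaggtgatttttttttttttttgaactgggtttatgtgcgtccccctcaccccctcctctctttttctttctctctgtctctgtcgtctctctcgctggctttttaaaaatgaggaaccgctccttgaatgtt
LXLOC_020939 (RefSeq ZFHX3-AS3), chr16:73232531-73232830, plus strand: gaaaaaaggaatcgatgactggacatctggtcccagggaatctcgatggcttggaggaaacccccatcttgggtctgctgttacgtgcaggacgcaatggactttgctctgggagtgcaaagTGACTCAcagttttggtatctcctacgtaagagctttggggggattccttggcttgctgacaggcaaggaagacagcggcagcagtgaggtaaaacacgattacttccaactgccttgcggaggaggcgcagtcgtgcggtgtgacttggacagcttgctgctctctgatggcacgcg
LXLOC_043167 (RefSeq LOC105374618), chr5:1930783-1931082, plus strand: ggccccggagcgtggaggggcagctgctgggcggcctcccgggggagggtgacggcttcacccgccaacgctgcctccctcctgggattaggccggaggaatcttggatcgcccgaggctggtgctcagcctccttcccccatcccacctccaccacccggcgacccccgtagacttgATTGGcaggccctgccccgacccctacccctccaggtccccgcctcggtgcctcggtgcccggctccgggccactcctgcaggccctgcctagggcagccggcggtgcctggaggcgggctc
LXLOC_005884 (RefSeq LOC107001062), chr10:47406915-47407214, plus strand: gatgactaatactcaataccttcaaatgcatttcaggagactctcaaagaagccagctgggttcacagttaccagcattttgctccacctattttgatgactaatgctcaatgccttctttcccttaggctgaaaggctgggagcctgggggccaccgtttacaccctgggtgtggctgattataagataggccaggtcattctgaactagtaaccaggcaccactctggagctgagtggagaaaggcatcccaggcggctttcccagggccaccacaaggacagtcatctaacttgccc
ENSG00000287342 (RefSeq LOC105375118), chr7:333140-333439, minus strand: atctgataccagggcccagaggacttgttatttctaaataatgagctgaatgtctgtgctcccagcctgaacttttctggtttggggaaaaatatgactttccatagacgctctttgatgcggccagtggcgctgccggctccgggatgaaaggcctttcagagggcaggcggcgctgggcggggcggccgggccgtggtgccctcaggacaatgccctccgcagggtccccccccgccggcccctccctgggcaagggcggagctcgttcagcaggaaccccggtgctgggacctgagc

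No motif was found in all 6 windows, whose RefSeq starts lay 17 to 243 bases from the start of the locus in the table. The LINC01508 window held the TEAD letters, the E-box and the TATA box, and the window of LXLOC_020939 held the AP-1 letters. Those of NR2F2-AS1 and LXLOC_043167 held the CCAAT box, read on the opposite strand, and the other 2 held none of the 6 motifs. Over all 30 windows, the CCAAT box was found in 15, and in 34.6% of the 35116 RefSeq windows, while the AP-1 letters were found in 4 (13.3% against 7.71%) and the E-box in 4 (13.3% against 7.26%). TEAD letters were found in 13.3% against 14.0%, GATA letters in 20.0% against 22.7% and the TATA box in 3 of the 30, against 11.5%. CG dinucleotides numbered 13 per window in the median, against 14 over all RefSeq windows, and ranged from 0 to 58. These counts describe letters only, and some windows may not be the promoter of the locus. Symbol-matched windows started 56412 bases from the locus start at MIR29B2CHG, 20408 at LINC02367, 6748 at ATP6V0E2-AS1 and 3728 at G2E3-AS1. The windows matched to LXLOC_002401 and LXLOC_027160 are those of the coding genes VASH2 and ZNF429. All of these windows held the CCAAT box.

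Most of the 304 loci had no public name and lay away from coding genes. LXLOC loci made up 232 of them (76.3%, against 66.3% of the 6449 loci at the LM3 limit and 38.0% of all loci), and 72 carried an Ensembl ID. The annotation (GENCODE 29) put 211 between coding genes (69.4% against 46.1% at the LM3 limit), 43 on the strand of a coding gene that they overlapped and 30 antisense to one, while 20 lay on sequence without that annotation. A start within 5 kb of a coding gene's start, in the opposite direction, was seen for 23 (7.57% against 20.4%). Their median span was 1946 bp, against 3993 bp at the LM3 limit. By chromosome, 38 lay on chromosome 11 (12.5% against 4.88%) and 24 on X (7.90% against 4.02%), and 1 on the Y chromosome is counted but not described. The shares over all loci at the LM3 limit include the 304. No test of these shares was made.

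Levels were low. Over the 304 loci the LM3 DMSO mean had a median of 0.94 FPKM, against 1.31 FPKM for the 6145 loci shared with HepG2, with 142 loci at 1 FPKM or more, 23 at 5 or more and 9 at 10 or more. Together they gave 576.3 and 591.9 FPKM in the LM3 DMSO libraries, 1.69% and 1.66% of all FPKM, and 426.0 and 448.4 FPKM with JQ1. The sums were 12.05 and 9.04 FPKM in the HepG2 DMSO libraries and 20.7 and 19.57 FPKM in HepG2 with JQ1. The LM3 DMSO libraries correlated at r = 0.93 over the 304 loci on the log2(FPKM + 0.5) scale, and the LM3 JQ1 libraries at 0.92. At the limits, AC020907.1, AC007637.1 and LXLOC_006299 were just inside at 0.505 FPKM in LM3 DMSO, and AP005131.7, LXLOC_031351 and LXLOC_053516 just outside at 0.495, 0.495 and 0.49 FPKM. LINC02981, ASH1L-IT1 and AC009152.1 were just inside the HepG2 limit at 0.095 FPKM, and LINC00342, ENSG00000288459 and LXLOC_001383 just outside at 0.1 FPKM.

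**Figure D1:**
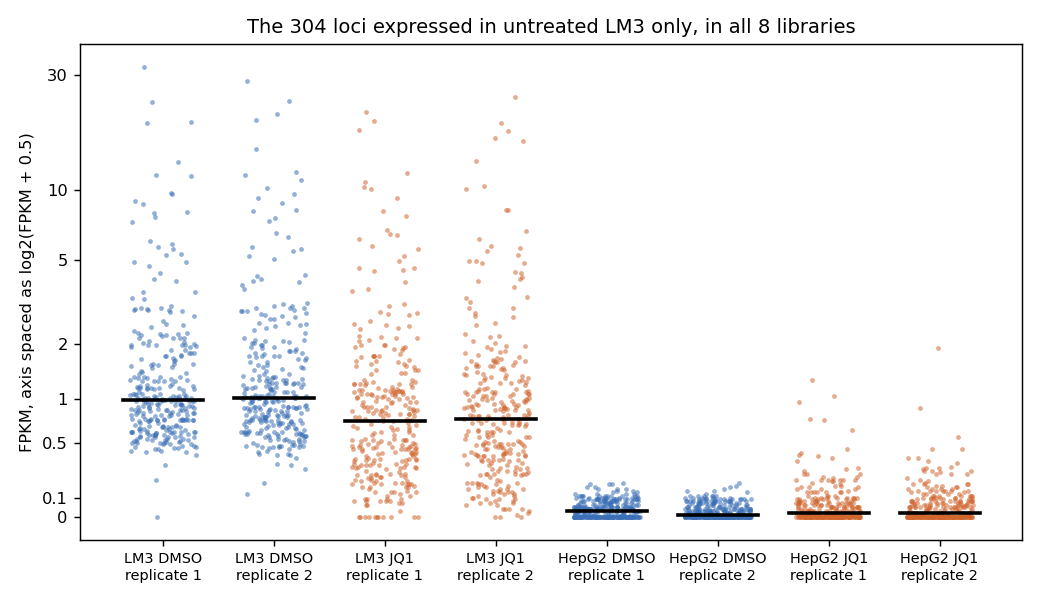
FPKM of each of the 304 loci (points) in each of the 8 libraries, on an axis spaced as log2(FPKM + 0.5), with the median of the library as a black line. Medians are 0.99 and 1.01 FPKM in the LM3 DMSO libraries, 0.73 and 0.75 FPKM with JQ1, and at most 0.03 FPKM in HepG2; the LM3 and HepG2 DMSO levels were fixed by the choice of loci.

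The highest LM3-only levels came from short loci on repeated or alternate sequence. LXLOC_057423, 371 bp on the patch CHR_HG2512_PATCH, stood at 32.65 and 28.60 FPKM in LM3 DMSO and 19.45 and 24.42 FPKM with JQ1. LXLOC_057872, on an alternate sequence of chromosome 2, stood at 23.22 and 23.44 FPKM, then 21.26 and 16.04 FPKM. LXLOC_058230, on the unplaced scaffold KI270544.1, stood at 19.33 and 20.79 FPKM, then 17.90 and 19.12 FPKM. LXLOC_055288 (chr9:66233071-66233376) stood at 19.04 and 19.56 FPKM, then 10.86 and 17.68 FPKM. In all 4 the JQ1 libraries lay below the DMSO libraries, and none of the changes passed the test. Such sequence has near-identical copies elsewhere, among which reads could be split, so these levels are uncertain.

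Among the loci with an Ensembl symbol, AC145543.1 on chromosome 22 was highest, at 9.64 and 11 FPKM in LM3 DMSO and 5.73 and 8.25 FPKM with JQ1. MIR3667HG, which contains the microRNA gene MIR3667 on its own strand (chr22:49414524-49657542, minus strand), followed at 3.30 and 3.85 FPKM, then 2.88 and 2.73 FPKM. LXLOC_037220, LXLOC_037222 and Z97192.2 lie inside it on the same strand, LXLOC_037222 with the microRNA gene too, so the 4 values are not independent. EPIST, which lies 4018 bp from PITX1, a homeobox gene of hindlimb and pituitary development, stood at 1.98 and 1.91 FPKM, then 1.94 and 1.15 FPKM. AC027335.1, on the strand of SEMA5A, a semaphorin gene, stood at 2.20 and 2.92 FPKM, then 1.01 and 1.49 FPKM. It missed the threshold by little (log2 fold change -0.81 ± 0.20 SE, limma adjusted p = 0.0511). AL162411.1, beside GLDC, the gene of a glycine cleavage enzyme, stood at 2.28 and 2.05 FPKM, then 1.64 and 2.18 FPKM. None of these passed the test.

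The labelled cell type was checked against marker lncRNAs, and few of liver were expressed in either line. Of 16 liver lncRNAs, 12 had values and 3 reached 0.5 FPKM in LM3 DMSO: DIO3OS at 4.10 and 4.75 FPKM, CPS1-IT1 at 1.34 and 1.41 FPKM, and HULC at 0.61 and 0.50 FPKM. In HepG2 DMSO 3 of the list reached 0.5 FPKM, but not the same 3: CPS1-IT1 at 6.84 and 6.79 FPKM, LINC01485 at 0.98 and 0.94 FPKM, and HULC at 0.63 and 0.80 FPKM. LINC01485 stood at 0.04 and 0.05 FPKM in LM3 DMSO, and DIO3OS at 0.41 and 0.53 FPKM in HepG2 DMSO. DIO3OS thus made up most of the LM3 sum given below, and CPS1-IT1 most of that of HepG2. HNF4A-AS1, antisense to the gene of a hepatocyte transcription factor, was listed at 0 in all 4 LM3 libraries. In HepG2 it stood at only 0.04 FPKM in both DMSO libraries. The liver list summed to 6.44 and 7.29 FPKM in LM3 DMSO, 3.60 and 3.18 FPKM with JQ1, 9.56 and 9.77 FPKM in HepG2 DMSO and 3.04 and 3.23 FPKM in HepG2 with JQ1. Of 9 stromal, endothelial and muscle lncRNAs 8 had values and 3 reached 0.5 FPKM, and the list summed to 14.85 and 15.10 FPKM in LM3 DMSO and 15.80 and 15.60 FPKM with JQ1. Of 9 immune lncRNAs 6 had values and 2 reached 0.5 FPKM, with sums of 1.34 and 1.78 FPKM, then 1.28 and 1.38 FPKM. Of 8 neural lncRNAs 5 had values and 0 reached 0.5 FPKM, with sums of 0.41 and 0.84 FPKM, then 0.59 and 0.53 FPKM. In HepG2 DMSO the stromal, immune and neural lists summed to 15.44 and 16.31, 1.27 and 1.35, and 0.39 and 0.33 FPKM. No gene of the 4 lists was LM3-only, and their part in the results was not tested.

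Of 11 lists of lncRNAs, only 2 held LM3-only loci. The list of lncRNAs beside developmental transcription factor genes had 2 of its 30 loci with values, LHX1-DT and NR2F2-AS1, and the list of microRNA hosts had 1 of 20, MIR29B2CHG. LHX1-DT, divergent from the homeobox gene LHX1, stood at 0.54 and 0.87 FPKM in LM3 DMSO and 0.86 and 0.49 FPKM with JQ1, and the groups overlapped. Lists of HOX cluster, carcinoma, cancer-testis, imprinted and inflammatory lncRNAs held no LM3-only locus.

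The comparison of JQ1 with DMSO in LM3 asks how these line-restricted RNAs responded to BET inhibition. JQ1 was associated mostly with lower levels. Of the 304 loci, 262 averaged 0.5 FPKM or more over the 4 LM3 libraries and were tested, 85 were lower and 15 higher with JQ1 (limma on log2(FPKM + 0.5), Benjamini-Hochberg over all 6474 loci tested, two-sided, threshold 0.05, n = 2 per group). Over all 6474 loci, 23.3% were called, 15.4% lower and 7.92% higher. As shares of all 304, 28.0% were lower and 4.93% higher, against 14.9% and 6.25% of the 6145 loci shared with HepG2, which met the same LM3 limit. DMSO values chose both of these sets but not the 6474, and a choice for high LM3 DMSO values by itself favours falls. The difference between the sets was not tested, and loci that may be pieces of the same transcript were counted singly. Lower RNA in bulk cells can be fewer cells that carry it or less of it in each, which cannot be told apart here.

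The called falls ranged from -1.92 to -0.43 on the log2 scale, with a median of -0.92, and 35 were at least 2-fold on the log2(FPKM + 0.5) scale. The called rises ranged from 0.46 to 0.97, with a median of 0.70, and none reached 2-fold on that scale, while 5 of the 15 at least doubled in mean FPKM, by up to 2.67 times at LXLOC_022330. The median log2 fold change over the 304 loci was -0.41, against -0.13 over the shared loci and -0.02 over all loci with values. The last had no lower limit in DMSO, so it is not a like measure. All 998 called falls lay at the LM3 limit, but only 399 of the 513 called rises did. This follows largely from the filter, since a locus that passes it and falls with JQ1 has its higher mean in DMSO. It is therefore no sign of a difference between falls and rises. Without tests, both JQ1 libraries lay below both DMSO libraries at 184 loci (60.5%, against 43.9% of all loci at the LM3 limit) and above them at 44 (14.5% against 22.4%), and the groups overlapped at 76. The 42 loci not tested stood between 0.51 and 0.91 FPKM in DMSO and at most at 0.41 FPKM with JQ1. For these a lower mean with JQ1 follows from the filter, and 36 of them count among the 184. Their order is therefore no sign of a response. With libraries centred on their medians, 80.2% of the calls among the LM3-only loci were falls, against 85.0% as deposited, while over all loci the share moved from 66.0% to 52.4%. Leaving out any 1 of the 4 libraries left no call at any locus (lowest adjusted p 0.0618 to 0.099 in limma), with 101 to 127 of the 262 at an unadjusted p under 0.05 and 181 to 191 of the 262 estimates negative.

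**Figure D2:**
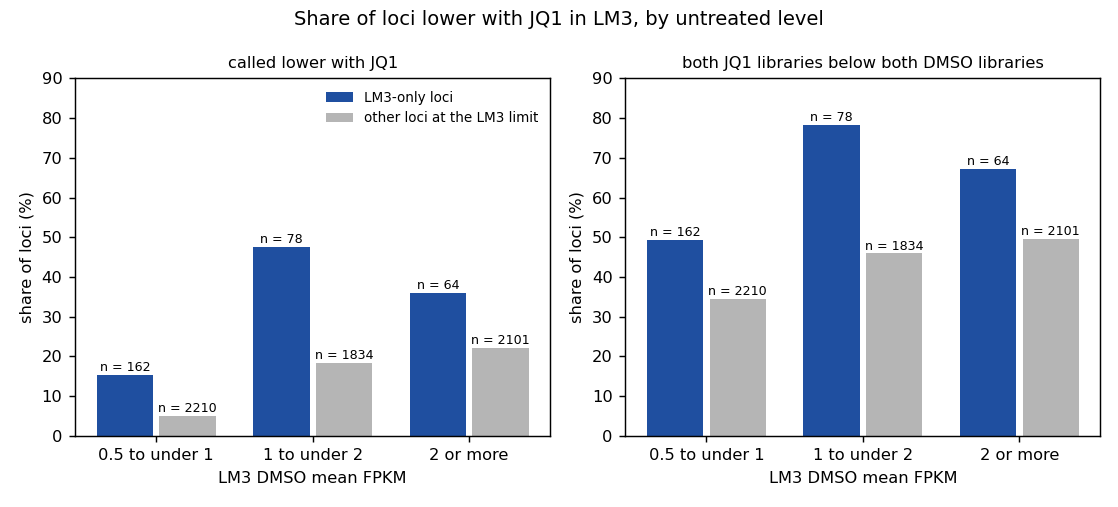
Share of loci (bars, in percent) called lower with JQ1 by limma (left) and with both JQ1 libraries below both DMSO libraries (right), for 3 ranges of the LM3 DMSO mean; n is the number of loci. The called share is 15.4%, 47.4% and 35.9% for the LM3-only loci and 5.07%, 18.4% and 22.0% for the other loci at the LM3 limit. Loci that may be pieces of the same transcript are counted singly.

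The share called lower was larger among LM3-only loci than among shared loci in each of 3 ranges of level, with no test of that difference. Loci were counted singly, and some may be pieces of the same transcript, so these counts are not of independent units. Between 1 and 2 FPKM in DMSO, 37 of 78 LM3-only loci were lower (47.4%), against 338 of 1834 shared loci (18.4%). At 2 FPKM or more, 23 of 64 were lower (35.9%) against 463 of 2101 (22.0%). Under 1 FPKM, 25 of 162 were lower (15.4%) against 112 of 2210 (5.07%). By place, 64 of the 211 loci between coding genes were lower (30.3%, against 15.9% of the shared loci so placed) and 9 higher (4.27% against 6.84%). Of the 30 antisense loci 9 were lower, against 15.7% of the shared antisense loci, and 1 higher (3.33% against 4.58%). Of the 43 on the strand of a coding gene 9 were lower (20.9% against 14.2%) and 2 higher (4.65% against 6.45%), and of the 20 without annotation 3 were lower (15.0% against 7.53%) and 3 higher (15.0% against 7.53%).

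**Figure D3:**
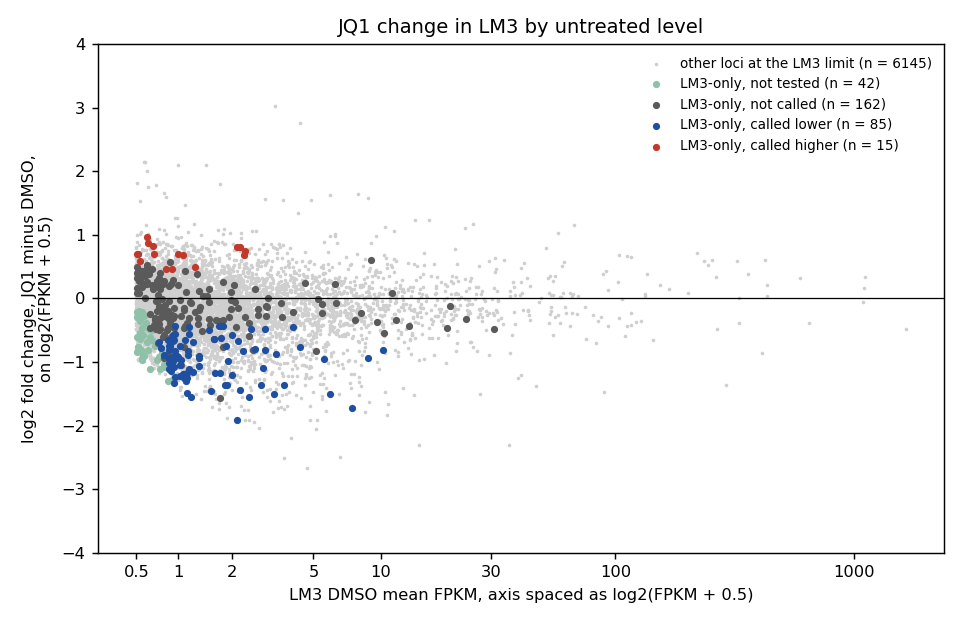
Log2 fold change (JQ1 minus DMSO, on log2(FPKM + 0.5)) against the LM3 DMSO mean FPKM for the 304 loci, coloured by call, over the 6145 other loci at the LM3 limit (grey). The 85 called falls lie between -1.92 and -0.43 and the 15 called rises between 0.46 and 0.97; the 42 not tested sit at the low end of the level.

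The largest fall was that of LXLOC_029632, a locus of 284 bp between coding genes (chr2:29086083-29086366, plus strand, 11339 bp from CLIP4). It stood at 2.59 and 1.67 FPKM in DMSO and at 0.16 and 0.21 FPKM with JQ1 (log2 fold change -1.92 ± 0.20 SE, limma adjusted p = 0.0110). LXLOC_043167, the locus near IRX4 whose window is printed above, went from 7.64 and 7.34 FPKM to 1.98 and 1.84 FPKM (-1.73 ± 0.09 SE, adjusted p = 0.0053 in limma). IRX4 encodes an Iroquois homeodomain factor of the heart ventricle. LXLOC_050448, 98409 bp from PODXL, the gene of the surface sialomucin podocalyxin, went from 1.20 and 1.17 FPKM to 0.08 and 0.07 FPKM (-1.55 ± 0.13 SE, limma adjusted p = 0.0089). LXLOC_020939, antisense to ZFHX3, a zinc finger homeobox gene, went from 5.58 and 6.30 FPKM to 1.75 and 1.77 FPKM (-1.51 ± 0.10 SE, limma adjusted p = 0.0056). LXLOC_005884 went from 3.58 and 3.70 FPKM to 1.18 and 1.04 FPKM (-1.36 ± 0.09 SE, limma adjusted p = 0.0061). In each of the 5 the groups lay clear of each other, and all were at most at 0.11 FPKM in any HepG2 library.

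Of the 72 loci with an Ensembl ID 6 met the rule for named falls. AC026336.3, 21691 bp from FZD10, which encodes a Wnt receptor, stood at 1.63 and 1.47 FPKM in DMSO and at 0.25 in both JQ1 libraries (-1.45 ± 0.11 SE, limma adjusted p = 0.0073). LINC01508, 176266 bp from DIRAS2, went from 2.15 and 1.85 FPKM to 0.44 and 0.75 FPKM (-1.20 ± 0.18 SE, limma adjusted p = 0.0185) and was listed at 0 in all 4 HepG2 libraries. AC254629.1, antisense to the mucin gene MUC3A, went from 1.66 and 1.62 FPKM to 0.32 and 0.60 FPKM (-1.17 ± 0.17 SE, limma adjusted p = 0.0186). NR2F2-AS1 is antisense to NR2F2, the gene of the nuclear receptor COUP-TFII, and went from 1.15 and 1.04 FPKM to 0.53 and 0.49 FPKM (-0.66 ± 0.11 SE, limma adjusted p = 0.0234). AC116351.2, 2206 bp from NKD2, whose product binds Dishevelled, went from 1.07 and 1.24 FPKM to 0.73 and 0.68 FPKM (-0.46 ± 0.11 SE, limma adjusted p = 0.0494). It kept this call in 2 of 9 other fits on all 4 libraries (adjusted p from 0.0465 to 0.0984 in limma). AC090987.1 on chromosome 8 belongs to a stretch described below. ENSG00000287342, whose window is printed above, went from 1.17 and 1.16 FPKM to 0.30 and 0.25 FPKM (-1.10 ± 0.12 SE, limma adjusted p = 0.0108).

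Outside the naming rule, and chosen after their values were seen, some further falls were of similar size, the first 3 at loci antisense to coding genes. LXLOC_000675, antisense to HIVEP3, a zinc finger gene, went from 2.15 and 2.28 FPKM to 0.50 and 0.51 FPKM (-1.43 ± 0.09 SE, limma adjusted p = 0.0056). LXLOC_035410, antisense to DNMT3L, the regulator of DNA methylation in germ cells, went from 1.04 and 1.18 FPKM to 0.18 and 0.13 FPKM (-1.30 ± 0.14 SE, limma adjusted p = 0.0108). LXLOC_037036, antisense to CSF2RB, the common beta chain of cytokine receptors, went from 1.15 and 1.01 FPKM to 0.15 and 0.18 FPKM (-1.25 ± 0.14 SE, limma adjusted p = 0.0111). Without a known strand setting, reads of an antisense locus and of its partner cannot be told apart. Among intergenic loci, LXLOC_035391, 1983 bp from SIK1, a salt-inducible kinase gene, went from 8.75 and 8.79 FPKM to 4.58 and 4.11 FPKM (-0.94 ± 0.09 SE, limma adjusted p = 0.0096). LXLOC_012518, 21397 bp from SCARB1, the gene of the HDL receptor, went from 1.80 and 1.69 FPKM to 0.49 in both JQ1 libraries (-1.18 ± 0.10 SE, limma adjusted p = 0.0078).

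**Figure D4:**
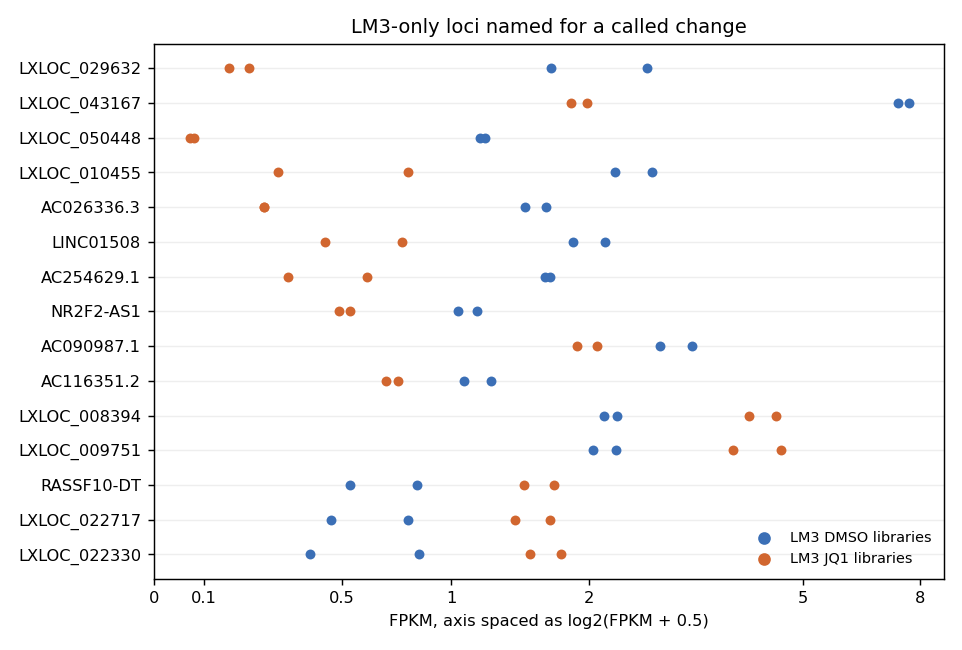
FPKM in the 2 DMSO and 2 JQ1 libraries of LM3 (points, 1 per library, on an axis spaced as log2(FPKM + 0.5)) for the 15 LM3-only loci named by rule for a called change, 10 falls and 5 rises, in the order of their log2 fold change from LXLOC_029632 at the top to LXLOC_022330. Some called falls outside the rule were larger than some of these. The DMSO and JQ1 points do not overlap at any of them, as the rule for naming required.

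Rises were fewer, and smaller on the log2(FPKM + 0.5) scale. RASSF10-DT (chr11:13001090-13009159, minus strand), which starts 418 bp from the tumour suppressor gene RASSF10 in the opposite direction, stood at 0.53 and 0.82 FPKM in DMSO and 1.46 and 1.69 FPKM with JQ1 (log2 fold change 0.83 ± 0.16 SE, limma adjusted p = 0.0323). LXLOC_009751, which overlaps RASSF10 on the other strand, went from 2.26 and 2.03 FPKM to 4.57 and 3.75 FPKM (0.81 ± 0.13 SE, limma adjusted p = 0.0195). Further up the same strand LXLOC_009752 stood at 4.90 and 4.2 FPKM, then 6.71 and 4.39 FPKM, and LXLOC_009753 at 5.87 and 5.02 FPKM, then 3.96 and 5.23 FPKM, and neither passed the test. All 4 were listed at 0 in every HepG2 library, with JQ1 too. LXLOC_022330, 1239 bp from CA5A, a mitochondrial carbonic anhydrase gene of the liver, went from 0.83 and 0.39 FPKM to 1.75 and 1.51 FPKM (0.97 ± 0.22 SE, limma adjusted p = 0.0466). LXLOC_008394, near the olfactory receptor gene OR4C46, went from 2.27 and 2.14 FPKM to 4.48 and 4.01 FPKM (0.81 ± 0.10 SE, limma adjusted p = 0.0123). Of the 15 rises, LXLOC_009751, LXLOC_008394 and LXLOC_057791 passed in every fit on all 4 libraries that tested them, as did 54 of the 85 falls.

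Of the 15 rises, 5 lay on chromosome 19 and 3 on an alternate sequence of it, a grouping seen only after the values were known. The chromosome held 19 LM3-only loci, of which 2 were lower, and of all 302 loci tested there 6.95% were higher and 15.6% lower. LXLOC_027146 and LXLOC_027147, 16587 and 17711 bp from ZNF66, went from 0.91 and 1.07 FPKM to 2.19 and 1.66 FPKM, and from 0.88 and 1.25 FPKM to 2.18 and 1.82 FPKM. LXLOC_057788, LXLOC_057791 and LXLOC_057795, on CHR_HSCHR19_1_CTG2, carry coordinates of the same region. LXLOC_057791 went from 2.34 and 2.36 FPKM to 4.43 and 4.17 FPKM (0.75 ± 0.09 SE, limma adjusted p = 0.0118). Reads of the chromosome and its alternate copy cannot be told apart here, so these 5 may not be separate transcripts. LXLOC_028772, near ZNF461, went from 0.94 and 0.89 FPKM to 1.55 and 1.37 FPKM, and LXLOC_027379, on the strand of ZNF567, from 0.47 and 0.60 FPKM to 1.14 and 0.97 FPKM. ZNF genes of chromosome 19 encode zinc finger proteins, many of which recruit repressors to repeats. Of the 12 LM3-only loci whose nearest coding gene has a ZNF name, 4 were higher and 1 lower, against 18 higher and 19 lower of 216 such loci tested.

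Nearly as many LM3-only loci had another within 100 kb as had none, 146 of 304 (48.0%). Of all 6449 loci at the LM3 limit, 4834 had another such locus that near. The larger set is denser along the genome, which raises its share, so the 2 shares cannot be compared as a measure of clustering. With successive LM3-only loci at most 100 kb apart joined, the 304 formed 203 stretches: 158 of a single locus and 45 of 2 or more, which held 146 loci and of which 41 were on 1 strand. In the 23 stretches of 3 or more loci, 14 had a called locus and 0 had calls in both directions. No such count was made for stretches of other loci, so it cannot be called particular to these. Loci of a stretch on 1 strand may be pieces of 1 transcript, so they are not independent. The 4 places of the naming rule took 6 stretches, because 4 stretches tied at 5 loci.

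The largest stretch ran along chromosome X upstream of XIAP, on its strand (chrX:123799454-123857947, plus strand). XIAP encodes an inhibitor of caspases. It held 15 LM3-only loci, LXLOC_059353 to LXLOC_059370 with 3 gaps, and 13 of them had both JQ1 libraries below both DMSO libraries, with 5 called lower and none higher. LXLOC_059357, which contains 4 of the others, was highest at 4.01 and 4 FPKM in DMSO, then 2.77 and 2.85 FPKM (log2 fold change -0.44 ± 0.08 SE, limma adjusted p = 0.0286). LXLOC_059360, inside it, changed most, from 1.35 and 1.11 FPKM to 0.53 and 0.62 FPKM (-0.68 ± 0.13 SE, limma adjusted p = 0.0283). The locus nearest to XIAP, LXLOC_059370, stood at 2.99 in both DMSO libraries and at 2.48 and 3 FPKM with JQ1. None of the 5 calls held in every fit on all 4 libraries that tested the locus. The 3 loci in the gaps, LXLOC_059363, LXLOC_059364 and LXLOC_059368, had HepG2 DMSO means of 0.39, 0.29 and 0.16 FPKM, so this region was not silent throughout in HepG2.

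On chromosome 11 (chr11:25978669-26079764, minus strand), 9 LM3-only loci lay between coding genes, 229835 bp or more from ANO3, a gene of the TMEM16 family. All 9 had both JQ1 libraries below both DMSO libraries, 5 were called lower, 3 were not tested and LXLOC_009850 did not pass. A lower mean with JQ1 at the 3 loci not tested follows from the filter. LXLOC_009856 went from 0.92 and 0.96 FPKM to 0.07 and 0.08 FPKM (-1.32 ± 0.15 SE, limma adjusted p = 0.0117). LXLOC_009858, at the 5′ end, went from 1.00 and 1.27 FPKM to 0.13 and 0.25 FPKM (-1.25 ± 0.17 SE, limma adjusted p = 0.0151). LXLOC_009849, at the 3′ end, kept more, with 0.84 and 0.90 FPKM in DMSO and 0.37 and 0.27 FPKM with JQ1 (-0.74 ± 0.14 SE, limma adjusted p = 0.0284). LXLOC_009851, which lies among them, had a HepG2 DMSO mean of 0.59 FPKM and was not LM3-only.

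On chromosome 9 (chr9:104990378-105022690, plus strand), 5 loci lay in a row, and the first started within CT70 on the other strand, a noncoding gene that itself had a mean of 0.075 FPKM in LM3 DMSO. The nearest coding gene is ABCA1, which exports cholesterol from cells. All 5 were called lower and kept the call in every fit on all 4 libraries that tested them. LXLOC_055645 went from 3.34 and 3.15 FPKM to 0.77 and 0.88 FPKM (-1.50 ± 0.10 SE, limma adjusted p = 0.0056). The next upstream, LXLOC_055644, went from 2.86 and 2.81 FPKM to 0.84 and 0.76 FPKM, and the last, LXLOC_055648, from 1.16 and 0.98 FPKM to 0.19 in both. Both groups thus had higher levels at the 5′ end than at the 3′ end.

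A stretch of chromosome 8 between ASAP1 and ADCY8 (chr8:130548632-130655712, minus strand) also held 5 loci, all called lower. LXLOC_054673 went from 4.37 and 4.26 FPKM to 2.51 and 2.19 FPKM (-0.76 ± 0.10 SE, limma adjusted p = 0.0141). AC090987.1, which overlaps it on the same strand, went from 2.75 and 3.16 FPKM to 2.07 and 1.89 FPKM (-0.48 ± 0.11 SE, limma adjusted p = 0.0416), and kept this call in 5 of 9 other fits (adjusted p from 0.0366 to 0.0839 in limma). The other 3, LXLOC_054670, LXLOC_054671 and LXLOC_054672, had estimates of -0.43, -0.58 and -0.67. Of the 5, only LXLOC_054673 kept the call in every fit on all 4 libraries that tested it.

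The remaining 2 stretches of 5 loci had no call. On chromosome 11 (chr11:5362241-5529928, minus strand) the loci lie within the annotated span of HBG2, a fetal globin gene, among olfactory receptor genes. LXLOC_009632 stood at 11.45 and 11.95 FPKM in DMSO and 10.11 and 8.21 FPKM with JQ1, while LXLOC_009624 stood at 3.07 and 3.01 FPKM, then 3.13 and 2.99 FPKM. LXLOC_009627, among them, had a HepG2 DMSO mean of 2.04 FPKM. On chromosome 17 (chr17:44998913-45015970, minus strand), near DCAKD, 4 of 5 loci had both JQ1 libraries above both DMSO libraries. LXLOC_024715, which contains 3 of the others, stood at 1.75 and 1.84 FPKM, then 2.42 and 2.08 FPKM (0.26 ± 0.10 SE, limma adjusted p = 0.143).

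**Figure D5:**
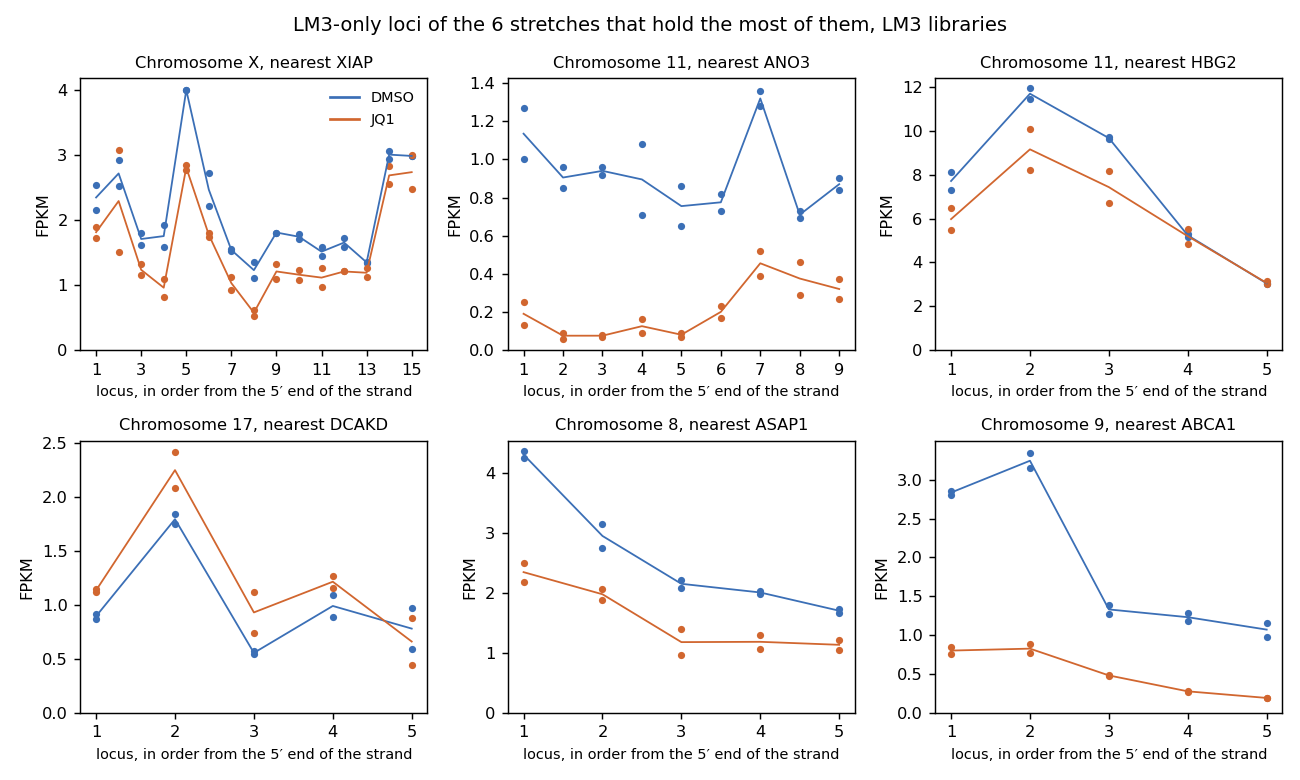
FPKM of the LM3-only loci in the 6 stretches that hold the most of them, in order from the 5′ end, with a point for each LM3 library and a line through the mean of DMSO (blue) and of JQ1 (orange); the vertical scales differ. JQ1 lies below DMSO at all loci of the chromosome 11 stretch near ANO3 and of the chromosome 9 and 8 stretches, and above it at 4 of 5 loci of chromosome 17.

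Fewer loci made up the other stretches. Among those of 4, that of chromosome 11 between FADD and PPFIA1 (chr11:70222821-70244772, minus strand) had all 4 lower. FADD encodes an adaptor of death receptors and PPFIA1 a liprin. LXLOC_010452, which spans the other 3, went from 1.98 and 1.81 FPKM to 0.40 and 0.46 FPKM (-1.36 ± 0.10 SE, limma adjusted p = 0.0072), and LXLOC_010455 from 2.25 and 2.65 FPKM to 0.29 and 0.78 FPKM (-1.55 ± 0.26 SE, limma adjusted p = 0.0246). On chromosome 13, 577221 bp and more from FGF9, a growth factor gene, 4 loci all had JQ1 above DMSO and none was called. LXLOC_014206 stood there at 0.74 and 0.48 FPKM, then 1.12 and 0.96 FPKM.

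Restriction to LM3 was read again in the JQ1 libraries, which had no part in the choice of loci. With JQ1, 189 of the 304 loci remained at 0.5 FPKM or more in LM3, 115 were below it and 14 were under 0.1 FPKM. In HepG2, 242 remained under 0.1 FPKM with JQ1 and 62 did not. Both limits were met in the JQ1 libraries by 143 of the 304 (47.0%), and by 86 further loci that missed them in DMSO. In single libraries, 259 reached 0.5 FPKM in both LM3 DMSO libraries and 247 were under 0.1 FPKM in both HepG2 DMSO libraries, and 55 were listed at 0 in all 4 HepG2 libraries. Levels of HepG2 and LM3 come from separate tables, which may have been normalized separately, so no test was made between them.

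Of the 62 LM3-only loci at 0.1 FPKM or more in HepG2 with JQ1, 3 reached 0.5 FPKM. A choice for low HepG2 DMSO values by itself favours higher values with JQ1, and no test was made in HepG2. Some of the highest are given here. LXLOC_022717, on the strand of TVP23B (chr17:18795806-18804616, plus strand), stood at 0.01 and 0.06 FPKM in HepG2 DMSO and at 1.30 and 1.92 FPKM with JQ1. In LM3 it went from 0.46 and 0.78 FPKM to 1.66 and 1.40 FPKM (0.87 ± 0.18 SE, limma adjusted p = 0.0367), so that JQ1 lay above DMSO in both lines. LXLOC_039898, on the strand of the coatomer gene COPB2, stood at 0 in both HepG2 DMSO libraries and at 0.63 and 0.88 FPKM with JQ1, while its LM3 groups overlapped (0.42 and 1.06 FPKM, then 0.29 and 1.05 FPKM). SPON1-AS1, antisense to the spondin gene SPON1, stood at 0.00 and 0.15 FPKM in HepG2 DMSO and 0.41 and 0.55 FPKM with JQ1, and at 0.64 and 0.46 FPKM, then 0.85 and 0.78 FPKM, in LM3.

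Overlap between loci bears on the rule itself. Of the 304, 59 overlapped another locus (same strand, 0.5 or more of the shorter locus), and for 32 of these the partner was not LM3-only. LXLOC_043167, with 0.01 FPKM in each HepG2 library, overlaps ENSG00000248994, which had a HepG2 DMSO mean of 0.40 FPKM. LXLOC_027850 overlaps AC011453.1 (ENSG00000269842), whose HepG2 DMSO mean of 0.11 FPKM put it just past the limit. In LM3, AC011453.1 stood at 0.80 and 0.69 FPKM in DMSO and 0.23 and 0.30 FPKM with JQ1, and was called lower (-0.70 ± 0.15 SE, limma adjusted p = 0.0372).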

How the data were processed

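FPKM for 23161 loci were deposited by the authors in 1 table per cell line, per the file headers, rounded to 2 decimals. Loci with a dash in every library (7692) were left out. The submitters' processing notes list Bowtie 0.12.2, hg19 and mm8, with no role for any. The coordinates are those of GRCh38: of 8453 Ensembl loci found in GENCODE 29, 100% lay on the same chromosome and 83.9% had the same start. How reads were counted, with what strand setting, and how LXLOC loci were found is not given in the sources used here, so values of overlapping, antisense and near-identical loci are uncertain.

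Depth is unknown. Of low values in short loci, 27.4% to 39.9% in a library fell no more than 0.1 from whole steps, so whole reads were not recovered, and the spread between libraries gives the precision. FPKM summed to 34070 to 35740 per LM3 library and 29370 to 32770 per HepG2 library.

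JQ1 was compared with DMSO in the 4 LM3 libraries by limma 3.58.1 (R 4.3.3, trend and robust fitting) on log2(FPKM + 0.5), which understates changes of low loci, for loci averaging 0.5 FPKM or more, with Benjamini-Hochberg adjustment over all 6474. It was tested on simulated data. Tables and plots were made with pandas 2.3.3, NumPy 2.4.6 and matplotlib 3.10.9 in Python 3.11.15.

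The loci, lists, tests and naming rule were chosen with earlier results of these data known. Named were the 10 Ensembl and 6 LXLOC loci highest in LM3 DMSO (examples are given), the 8 symbols and 4 LXLOC loci with the largest called change in each direction with no overlap and a higher group at 1 FPKM or above, list members, loci of the 4 richest stretches, the 4 highest in HepG2 with JQ1 and 3 loci on each side of a limit. LXLOC_027850, loci with a printed promoter window, those near ZNF genes and those of stretches of 4 were chosen for sequence, place or after their values were seen. Alternatives covered the pseudocount, filter, scaling, fit, overlaps, limits and single libraries.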

Additional observations from a re-analysis of the deposited data

Results flagged for a closer look

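At 4 named loci both JQ1 libraries lay below both DMSO libraries in LM3 and above them in HepG2. Their HepG2 JQ1 mean was at least 0.1 FPKM, and the difference between the lines was not tested. At any HepG2 level, this order was seen at 18 of the 304 LM3-only loci and the reverse at 1. A choice for high LM3 DMSO and low HepG2 DMSO values by itself favours this order. Without overlap, JQ1 lay on the same side of DMSO in both lines at 47 loci and on opposite sides at 19. The like shares over all loci were not counted, so these counts cannot be called particular to the LM3-only loci. LXLOC_035957 on chromosome 22 stood at 1.00 and 0.12 FPKM in LM3 DMSO and 0.00 and 0.01 FPKM with JQ1, but at 0.00 and 0.03 FPKM in HepG2 DMSO and 1.05 and 0.33 FPKM with JQ1, a mean of 0.69 FPKM. MIR29B2CHG, given in the report, had a HepG2 JQ1 mean of 0.2 FPKM. LXLOC_058230 and LXLOC_059357 both had one of 0.1 FPKM, from 0.13 and 0.07 FPKM and from 0.08 and 0.12 FPKM.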

How the results depend on the processing

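Falls among LM3-only loci numbered 85, and 60 to 84 under every alternative on all 4 libraries except the filter at 1 FPKM, where fewer loci were tested (36). Rises numbered 15, but 3 without a filter and 9 with a replicate block; other alternatives on all 4 libraries gave 12 to 17. Over all loci, 251 rises and 606 falls passed without a filter, against 513 and 998, and 651 falls passed without loci that overlap. Leaving out 1 library gave 0 to 0 calls in each of these counts. Replicate numbers shared by the groups were checked: same-numbered LM3 libraries deviated together at r = 0.135 over 6474 loci. With 2 pairs this cannot show whether the samples share more than a number, and the labels do not say. The block gave 71 falls and 9 rises. The LM3-only set held 142 loci with an LM3 limit of 1 FPKM, 193 with a HepG2 limit of 0.05 FPKM and 90 with both HepG2 libraries at 0, of which 77, 99 and 39 kept both limits with JQ1. Leaving out 1 DMSO library gave 303 to 333 loci, of which 140 to 142 kept both. No named and called locus changed direction in any alternative; the cause of these shifts was not tested. Depth is unknown, which limits values near 0.1 FPKM.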
